A study of Mus musculus with 10 samples.

Results

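The genes described here encode the proteins of the cytosolic ribosome. They were taken by symbol: Rpl or Rps, then a number and at most 1 of the letters a, x, y and l, together with Rplp0, Rplp1, Rplp2 and Rpsa. Of 24421 gene symbols in the files, 81 matched, 32 of them named for the 40S subunit and 49 for the 60S subunit. The name rule holds for ribosomal proteins with exceptions. It takes in Rps4l, which the GENCODE M21 annotation types as a transcribed processed pseudogene, and tissue-restricted copies such as Rpl3l. It leaves out other genes that encode ribosomal proteins, such as Rps3a1, Fau and Gnb2l1 (Rack1), which are given as a separate list. A total of 80 members passed the filter on low counts. The other, Rpl10l, a copy of Rpl10 known from the testis, had 0 counts in each of the 10 libraries, which allows up to 3 counts in a library.

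The counts came from inguinal subcutaneous white fat of the left hindlimb of C57BL/6J mice labelled wild type. The 4 FLASH libraries and the 3 CONV libraries came from mice given 33.3 Gy of electrons by an ElectronFlash linear accelerator, set to the ultra-high dose-rate (FLASH) or the conventional (CONV) mode, and the 3 sham libraries from mice that were not irradiated. All were labelled day 70 and batch 1. Whether every library came from its own mouse is not stated in the labels, and p-values below measure the spread between libraries only.

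A ribosome holds a single copy of most of its proteins, and cells make them in step with the ribosomal RNA. The genes are therefore usually expressed in proportion, and growing or dividing cells express them at high levels, while mature adipocytes divide rarely. Their mRNAs typically begin with a run of pyrimidines, the terminal oligopyrimidine (TOP) tract, through which mTORC1 and the protein Larp1 control translation without much change in the amount of mRNA. Counts of RNA do not show that control.

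Start-site sequences are shown for 7 members on which later values turn, since the tract is the feature that the family is known to share. Each is 30 bases of the gene strand from 15 bases before the start annotated by RefSeq (GRCm38.p6). Rpl3l and Rps27l have 2 annotated starts each, and only the first listed is shown and described. Capitals mark the longest run of C and T anywhere in the window, also before the start, so a marked run need not be a TOP tract. In Rpl39l and Rps27l the run ended before the annotated start, and in Rpl3l it began after it. The regions are chr2:39005117-39005146 (minus strand) for Rpl35, chr4:86857353-86857382 (minus strand) for Rps6, chr7:141447636-141447665 (plus strand) for Rplp2, chr3:90213634-90213663 (minus strand) for Rps27, chr16:10170213-10170242 (plus strand) for Rpl39l, chr17:24727811-24727840 (plus strand) for Rpl3l and chr9:66946071-66946100 (plus strand) for Rps27l.
Rpl35: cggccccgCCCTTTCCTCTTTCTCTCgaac
Rps6: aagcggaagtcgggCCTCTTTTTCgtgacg
Rplp2: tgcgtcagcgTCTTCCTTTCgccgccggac
Rps27: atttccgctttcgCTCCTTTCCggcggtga
Rpl39l: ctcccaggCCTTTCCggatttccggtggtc
Rpl3l: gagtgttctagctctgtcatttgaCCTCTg
Rps27l: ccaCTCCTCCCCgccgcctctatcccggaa
The run was 18 bases long in Rpl35, 10 in Rps6 and in Rplp2, and 5 in Rpl3l, the striated-muscle copy of Rpl3. Start windows were matched for 60 of the 81 members. Of these, 33 (55%) held a run of at least 7 pyrimidines, before or after the start. This compares with 16.2% of 68 mitochondrial ribosomal protein genes and 21.3% of 17224 genes with a window. The letters CTTTCC, searched on the gene strand from 50 bases before to 50 after the start, were present in 31.7% of the members, 7.35% of the mitochondrial set and 5.24% of all genes. The letters CCGGAAG, searched on both strands of the same window, where a match can overlap one of CTTTCC, were present in 21.7% of the members, 27.9% of the mitochondrial set and 7.81% of all genes. For genes with more than 1 annotated start (10 of the 60 members), a run or match at any of them counted. These matches describe the letters in the windows and do not show that a factor binds there.

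Counts given to genes numbered 22.4 M to 36 M (M, 1e6) per library, with the fewest in FLASH replicate 3 (22.4 M) and CONV replicate 2 (25.5 M). FLASH replicate 3 and CONV replicate 2 stood apart from the other 8. The summed level of 10 B cell and plasma cell markers was 2260 CPM (counts per 1e6, scaled by TMM) in FLASH replicate 3 and 3560 CPM in CONV replicate 2, against 2.93 to 29.4 CPM in the other 8 libraries. For 9 T and NK cell markers the sums were 798 and 510 CPM in the pair and 5.88 to 12 CPM in the others. The 10 adipocyte markers summed to 5580 and 4080 CPM in the pair and to 24400 to 38600 CPM in the others, and 8 proliferation markers summed to 352 and 910 CPM in the pair and to 58 to 86.8 CPM in the others. None of these 4 lists had a marker at 0 in every library. Adipocyte markers were thus high in the 8, as the tissue label says, and the pair also held lymphoid transcripts. The counts and medians of the members are given for each comparison with all 10 libraries and with the 8. In bulk tissue, fewer cells of a type and less RNA per cell cannot be told apart.

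The members together took 0.646%, 0.586%, 1.68% and 0.691% of the gene counts in FLASH replicates 1 to 4, 0.672%, 2.13% and 0.714% in CONV replicates 1 to 3, and 0.725%, 0.648% and 0.754% in sham replicates 1 to 3. The pair was high, and the groups overlapped. The mean share was 0.901% ± 0.521 in FLASH (SD, n = 4), 1.17% ± 0.832 in CONV (SD, n = 3) and 0.709% ± 0.0547 in sham (SD, n = 3). Without the pair the FLASH mean was 0.641% and the CONV mean 0.693%. The 95% Clopper-Pearson interval of a library's share was at most 0.011 percentage points wide and covers counting error only. The share of Rn45s, the ribosomal RNA precursor left after depletion, was 3.27%, 2.86%, 7.51% and 2.66% in FLASH, 2.05%, 8.39% and 5.27% in CONV, and 2.92%, 1.79% and 1.95% in sham. It was highest in the same pair and next highest in CONV replicate 3, whose share in the members (0.714%) lay within the sham range.

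**Figure D1:**
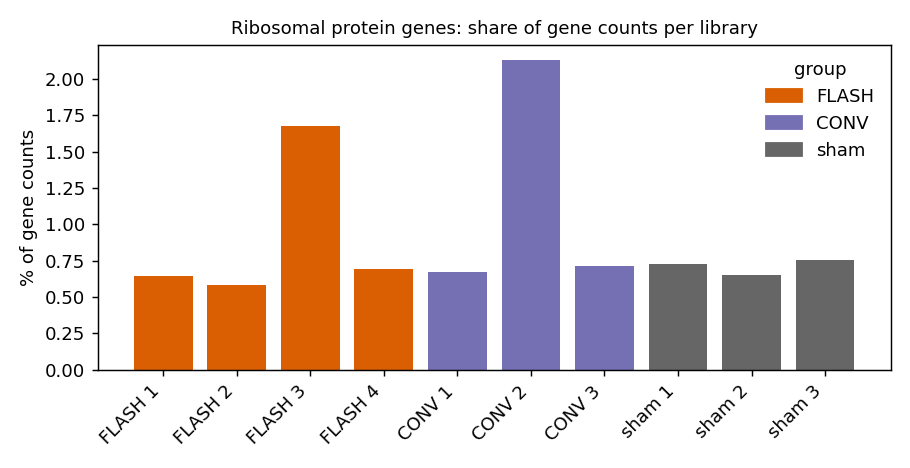
Percent of gene counts in the 81 members for each library, bars by library and coloured by group (FLASH, CONV, sham). FLASH replicate 3 (1.68%) and CONV replicate 2 (2.13%) stand above the other 8 libraries, which lie between 0.586% and 0.754%.

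Levels between genes were compared per length, as TPM (transcripts per 1e6) computed from the counts. The median member had 277 TPM, and 67 of 81 had a median over 100 TPM. The highest was Rplp1 of the ribosomal stalk (median 1410 TPM, range 1210 to 3340 over the 10 libraries). It was followed by the 40S protein Rps4x (793 TPM), the stalk scaffold Rplp0 (755 TPM), the 60S protein Rpl35 (724 TPM) and Rps6 (723 TPM), the 40S protein that S6 kinases phosphorylate. Within a library, Rplp1 was above each of the other 4 in 10 of 10 libraries. Those 4 changed places: Rps4x was above Rplp0 in 5 of 10 libraries, Rplp0 above Rpl35 in 7, and Rpl35 above Rps6 in 2, so their order was not fixed over the libraries. The lowest members with any count were Rpl34 (2.15 TPM), Rpl39l (1.93 TPM), Rpl26 (1.15 TPM) and Rpl3l (0.104 TPM).

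Rpsa, which is also known as a laminin receptor, had 419, 410, 1050 and 473 CPM in FLASH, 451, 1180 and 529 CPM in CONV, and 451, 441 and 478 CPM in sham. Rplp0 had 311, 265, 606 and 308 CPM in FLASH, 291, 820 and 359 CPM in CONV, and 310, 268 and 245 CPM in sham. In both genes the 2 highest libraries were FLASH replicate 3 and CONV replicate 2. Rps6 had 162, 139, 383 and 165 CPM in FLASH, 194, 448 and 174 CPM in CONV, and 171, 185 and 221 CPM in sham. Rpl5, which with Rpl11 can bind and inhibit Mdm2 when ribosome assembly fails, had 129, 153, 347 and 175 CPM in FLASH, 195, 359 and 167 CPM in CONV, and 145, 165 and 196 CPM in sham. Rpl11 had 82.4, 64.5, 107 and 70.1 CPM in FLASH, 69.8, 141 and 83.5 CPM in CONV, and 87.1, 77.1 and 85.7 CPM in sham. All of these groups overlapped, and in Rpl11 the pair stood less far from the rest than in Rpl5. The gene Rpl13a, whose protein can leave the ribosome in interferon-treated myeloid cells, had 118, 123, 406 and 154 CPM in FLASH, 151, 457 and 177 CPM in CONV, and 146, 127 and 167 CPM in sham.

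**Figure D2:**
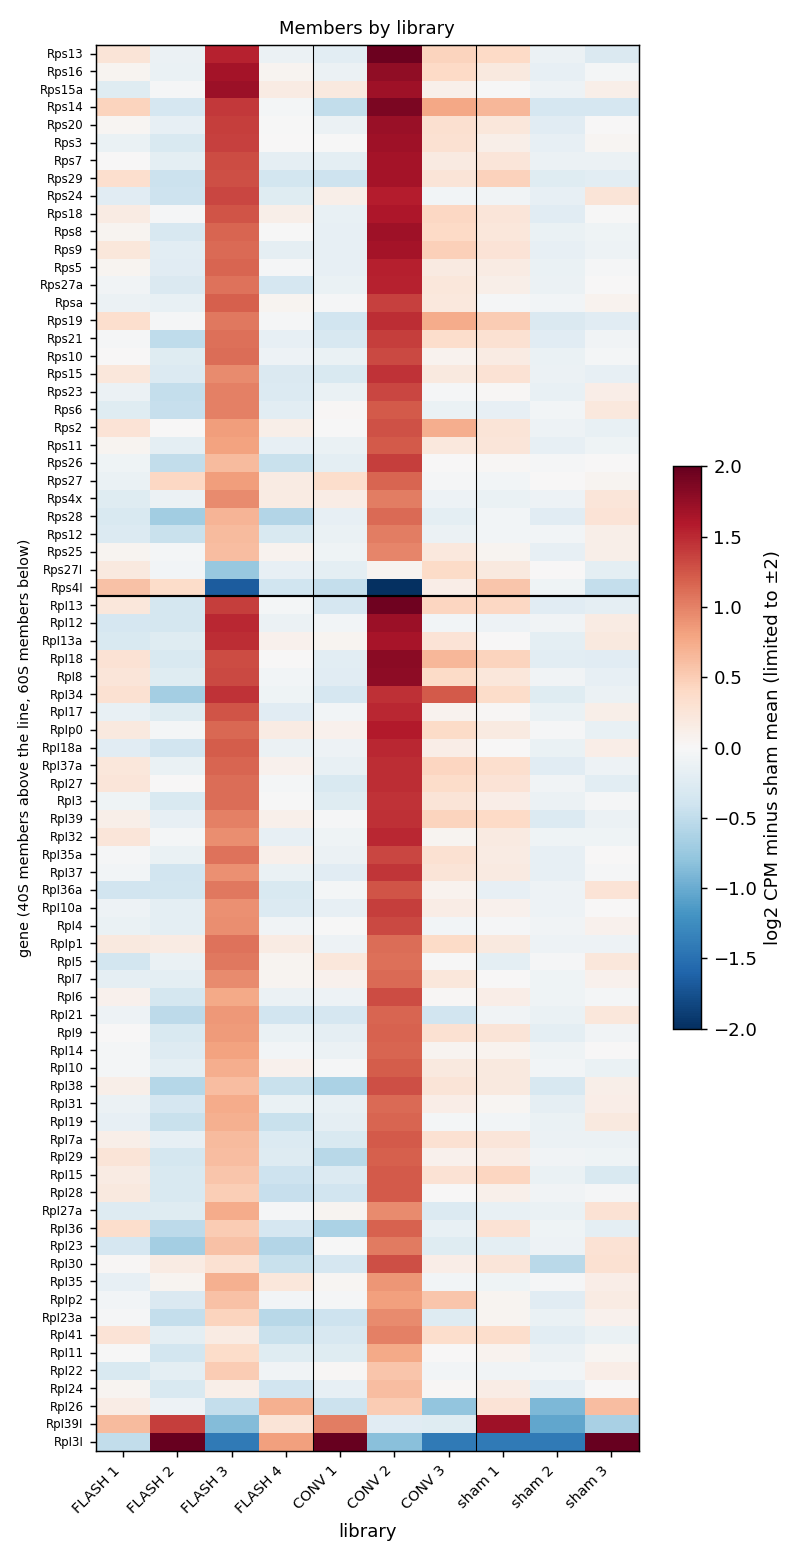
Log2 CPM of the members tested, 1 of them not drawn, minus their sham mean (colour, limited to ±2), genes in lines by subunit and libraries in columns (FLASH, CONV, sham). In 73 of the 80 members tested FLASH replicate 3 and CONV replicate 2 are both above the other 8 libraries. Rps4l is below them there.

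Both libraries of the pair lay above all 8 others for 73 of the 80 members tested (91.2%), against 32.6% of the 15266 genes tested. The 40S members did so in 30 of 32 cases and the 60S members in 43 of 48. The exceptions were Rpl24, Rpl26, Rpl39l, Rpl3l, Rpl41 and Rps27l, which lay on neither side, and Rps4l, which lay below. The median member stood 0.93 above its sham mean in FLASH replicate 3 and 1.30 above it in CONV replicate 2 on the log2 scale. In the other 8 libraries this median lay between -0.25 and 0.18. The 40S median was 1.10 in FLASH replicate 3 and 1.42 in CONV replicate 2, and the 60S median was 0.82 and 1.22. These libraries were set apart by their lymphoid markers, and the part of those cells in the members' levels was not tested.

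Other genes of translation did not all have this pattern. The 8 ribosomal proteins outside the name rule that were tested had medians of 0.89 in FLASH replicate 3 and 1.14 in CONV replicate 2, and 15 elongation factors and other TOP mRNAs (such as Eef1a1 and Tpt1) had 0.50 and 0.80. The 35 ribosome biogenesis factors (nucleolar proteins such as Fbl and Ncl) had 0.78 and 1.01, and the 19 genes of the RNA polymerase I machinery 0.45 and 0.52. The 25 initiation factors had -0.07 and 0.19. The 18 genes listed as regulators of TOP mRNA translation had -0.05 and 0.08. That list is mixed, since Myc, Mycn, Max, Mnt and Mxi1 in it are transcription factors, and its genes did not move together. Myc had 25.2 CPM in FLASH replicate 3 and 30.7 CPM in CONV replicate 2, against 7.75 to 15.1 CPM in the others. Deptor had 155 and 76.6 CPM there, against 441 to 818 CPM. The 77 mitochondrial ribosomal proteins, which build the separate ribosome of that organelle, had -0.43 and -0.17, and both libraries lay above all 8 others for 1 of them (1.3%, against 32.6% of all genes) and below for 26 (33.8%, close to the 31% of all genes). In CONV replicate 3 the median was 0.47 for the biogenesis factors, 0.40 for the polymerase I genes and 0.45 for the mitochondrial set, while it was 0.18 for the members. The medians of the cytosolic and the mitochondrial ribosomal protein genes had opposite signs in FLASH replicate 3 and in CONV replicate 2.

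**Figure D3:**
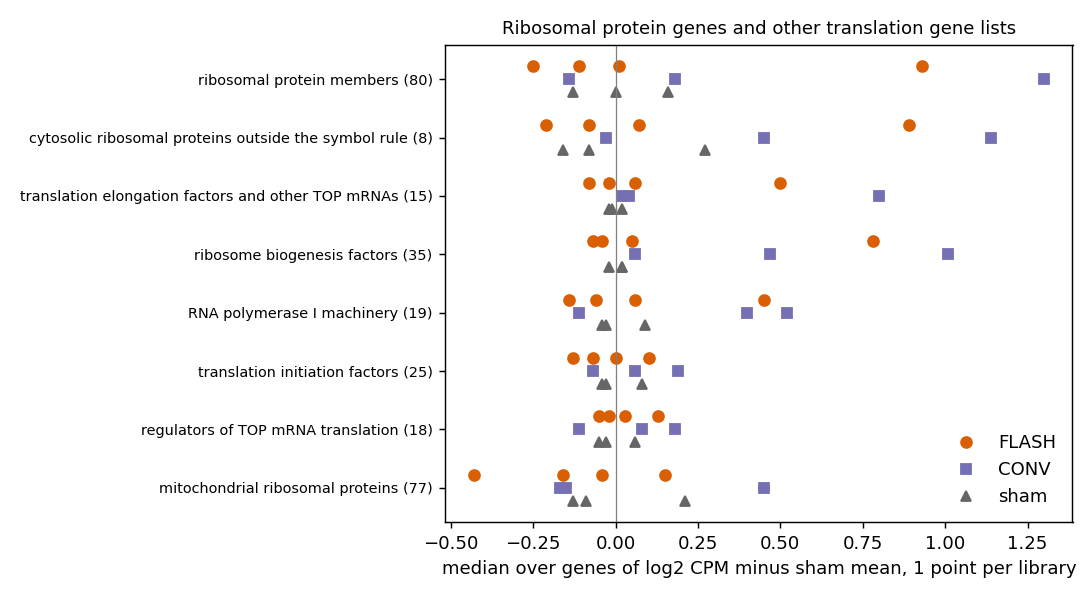
Median over the genes of each list (number tested in brackets) of log2 CPM minus the sham mean, 1 point per library (circles FLASH, squares CONV, triangles sham). FLASH replicate 3 and CONV replicate 2 are the points farthest right for the members (0.93 and 1.30) and lie at -0.43 and -0.17 for the mitochondrial ribosomal proteins.

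FLASH was compared with sham to see whether the members differ 70 days after irradiation at the high dose rate. With all 10 libraries, 0 of 80 members passed an adjusted p of 0.05 in edgeR's quasi-likelihood test (Benjamini-Hochberg over all genes), as did 0% of the 15266 genes tested. At an unadjusted p under 0.05 there were 0 members (0.373% of all genes were higher at that p and 0.275% lower), and DESeq2 and limma voom also passed 0. The median log2 fold change of the members was 0.22, with 66 of 80 above 0, against 54.1% of all genes. The smallest p belonged to Rplp1 (log2 fold change 0.46 ± 0.34 SE, adjusted p = 0.998 in edgeR), which had 209, 204, 390 and 206 CPM in FLASH and 211, 170 and 170 CPM in sham. No member had groups without overlap, against 2.46% of all genes higher and 2.45% lower.

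Without the pair the median was -0.12 and 65 of 80 members (81.2%) had a log2 fold change below 0 in FLASH against sham, against 51.5% of all genes. The members varied together over libraries, so these are not separate observations. The median member stood at 0.01, -0.25 and -0.11 from its sham mean in FLASH replicates 1, 2 and 4. In sham replicates 1 to 3 it stood at 0.16, -0.13 and 0, so the groups overlapped. Again 0 of 80 passed in edgeR (0% of 15252 genes), and DESeq2 and limma voom also passed 0 members. A total of 12 members had an unadjusted p under 0.05, all lower (15%, against 1.2% of all genes), among them Rpl21, Rpl23, Rpl23a, Rpl36a, Rps6, Rps12, Rps26 and Rps28. All 12 had an adjusted p of 1, so none was called. Rps12 had 64.9, 58.3 and 63.7 CPM in the 3 FLASH libraries and 75.8, 75.9 and 85.9 CPM in sham (log2 fold change -0.35 ± 0.10 SE). Rpl23 had 76.6, 60.1 and 64 CPM in FLASH and 84.4, 90.2 and 118 CPM in sham (-0.55 ± 0.16). Rps28 had 23.5, 17.9 and 19.3 CPM in FLASH and 27.7, 24.9 and 35.2 CPM in sham (-0.54 ± 0.16). In these 3 genes every FLASH library was below every sham library. In all, 11 members had such a gap (13.8%, against 4.64% of all genes), and 0 had the reverse, against 5.14%. At an unadjusted p under 0.05, 0 members were higher, against 1.32% of all genes. The number of members at an unadjusted p under 0.05 was 3 without sham replicate 3, 3 without FLASH replicate 2 and 9 in DESeq2. It was 11 in limma voom and 17 in limma voom with quality weights.

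The stalk members differed in sign in that comparison. Without the pair, FLASH averaged 206 ± 2.4 CPM for Rplp1 and 295 ± 25.6 CPM for Rplp0, against 184 ± 23.3 and 275 ± 32.7 CPM in sham (SD, n = 3 each). The log2 fold changes were 0.16 ± 0.15 SE for Rplp1, 0.09 ± 0.14 for Rplp0 and -0.14 ± 0.17 for Rplp2, and none passed (adjusted p = 1 in edgeR). Rpsa (-0.08 ± 0.12), Rpl5 (-0.15 ± 0.16), Rpl11 (-0.21 ± 0.12) and Rpl13a (-0.17 ± 0.15) did not pass either.

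CONV was compared with the same sham libraries, so the 2 comparisons are not independent. With all 10 libraries 0 of 80 members passed in edgeR (0% of all genes), with 0 at an unadjusted p under 0.05 (3.46% of all genes were higher at that p and 2.36% lower), 0 passed in limma voom and 0 in DESeq2. The median log2 fold change was 0.57 and 77 of 80 members were above 0, against 56.9% of all genes. The smallest p belonged to Rps2, a 40S protein near the mRNA channel, with 173, 420 and 288 CPM in CONV and 208, 163 and 157 CPM in sham (0.74 ± 0.35 SE, adjusted p = 0.607 in edgeR). CONV replicate 1 lay within the sham range. No member had groups without overlap, against 8.58% of all genes higher and 9.11% lower. Without CONV replicate 2 the median was 0.01, and without the pair it was 0.00, with 40 members above 0 and 40 below (51.3% and 48.7% of all genes).

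Among the 8 libraries 0 of 80 members passed for CONV against sham, where 0.0393% of all genes did. The lowest adjusted p was 0.373, for Rpl21 (log2 fold change -0.38 ± 0.16 SE in edgeR), a 60S protein with 38.6 and 37.3 CPM in CONV and 46, 43.8 and 56.2 CPM in sham. Rpl21, Rpl23a and Rps12 were the 3 members (3.75%) with every CONV library below every sham library, against 13.2% of all genes, a share below the background. No member had the reverse, against 13% of all genes. At an unadjusted p under 0.05 only Rpl21 was lower (1.25%, against 6.24% of all genes) and 0 members were higher, against 7.02%. Only 2 CONV libraries remained here, and they differed. With CONV replicate 1 as the only CONV library 66 of 80 members were below 0 (median -0.16), and with CONV replicate 3 as the only one 27 were (median 0.14).

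FLASH was compared with CONV to set the dose rates against each other at the same dose. With all 10 libraries 0 of 80 members passed in edgeR (0% of all genes), with 0 at an unadjusted p under 0.05 (1.43% of all genes were higher at that p and 1.53% lower), and 0 passed in DESeq2 or limma voom. The median log2 fold change was -0.38 with 77 of 80 members below 0, against 55.8% of all genes, and 3 above 0, against 44.2%. No member had groups without overlap, against 1.13% of all genes higher and 1.12% lower. Each group held a library of the pair, and the sign depended on them. The median was 0.20 without CONV replicate 2 and -0.72 without FLASH replicate 3. Without both it was -0.14, with 67 of 80 below 0 (31 of 32 for the 40S and 36 of 48 for the 60S), against 53.1% of all genes, and 13 above 0, against 46.9%.

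Among the 8 libraries the lowest adjusted p for FLASH against CONV was 0.361, for Rpl36a (18.4, 18.6 and 19.2 CPM in FLASH, 23.3 and 25.2 CPM in CONV, log2 fold change -0.36 ± 0.16 SE in edgeR), and 0 of 80 members passed, where 0.0131% of all genes did. At an unadjusted p under 0.05 only Rpl36a was lower (1.25%, against 6.9% of all genes) and 0 members were higher, against 6.75%. Of the members tested, 14 (17.5%) had every FLASH library below every CONV library, close to the 13.3% of all genes, and only Rpl26 had the reverse (1.25%, against 12.8%). Rplp2 was among the 14, with 131, 111 and 129 CPM in FLASH and 133 and 199 CPM in CONV (-0.42 ± 0.19). With CONV replicate 1 as the only CONV library the median was 0.04 and 34 members were below 0, and with CONV replicate 3 as the only one the median was -0.27 and 70 were.

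**Figure D4:**
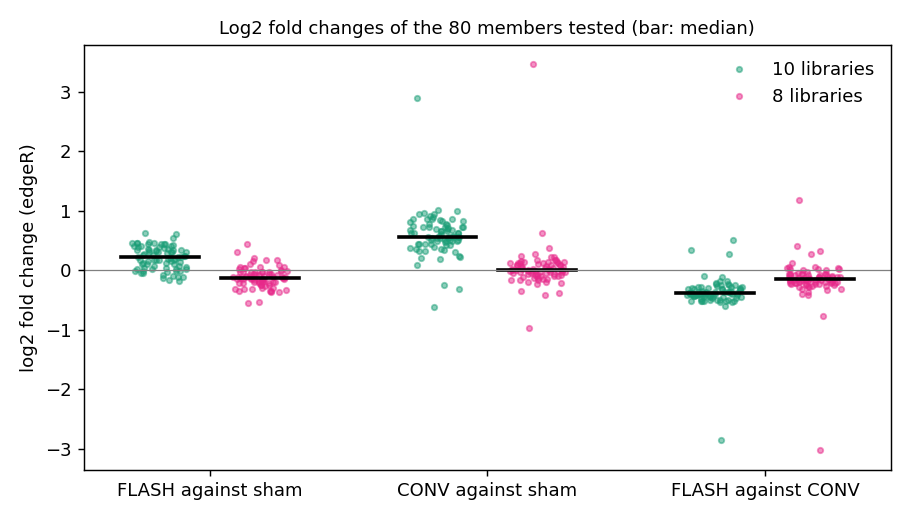
Log2 fold change (edgeR) of each of the 80 members tested in the 3 comparisons, with all 10 libraries and with the 8 that exclude FLASH replicate 3 and CONV replicate 2 (1 point per gene, bar at the median). For FLASH against sham the median is 0.22 with 10 libraries and -0.12 with 8, and for CONV against sham it is 0.57 and 0.00.

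The proportions of the members to each other were described within libraries. Taking each member relative to the median member of the same library, the median SD over the 10 libraries was 0.20 on the log2 scale (0.16 over the 8), and 67 of 80 members had an SD under 0.3 (72 over the 8). Taken the same way about their own median, the mitochondrial ribosomal proteins had a median SD of 0.21 and the initiation factors 0.22 over the 10 libraries (0.17 and 0.16 over the 8), close to the members, and all genes tested had 0.49 (0.28 over the 8). Over the 10 libraries the most variable members were Rpl3l, Rps4l, Rpl39l, Rpl26 and Rps27l. Over the 8 they were Rpl3l, Rpl39l, Rpl26, Rpl34 and Rps4l, and Rps27l had an SD of 0.15 there. Rpl26 and Rpl34 are core 60S proteins whose counts were low here.

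Rpl3l replaces Rpl3 in the ribosomes of heart and skeletal muscle. It had 2, 37, 0 and 8 counts in FLASH, 279, 1 and 0 in CONV, and 0, 0 and 36 in sham. The 9 skeletal muscle markers summed to 11.6, 323, 6.06 and 36.5 CPM in FLASH, 1890, 9.45 and 1.62 CPM in CONV, and 13.4, 11.7 and 643 CPM in sham. The 4 libraries with the most Rpl3l were the 4 with the most muscle marker RNA, and Ckm, the muscle creatine kinase, stood at 209 CPM in CONV replicate 1 and at 0 CPM in FLASH replicate 1, FLASH replicate 3, CONV replicate 3 and sham replicate 2. The part of muscle in Rpl3l was not tested. Rpl3l had the largest log2 fold change of any member in CONV against sham, 2.89 ± 2.48 SE with 10 libraries and 3.47 ± 2.08 with the 8 (adjusted p = 0.641 and 0.516 in edgeR), with nearly all CONV counts in replicate 1. Rpl3 itself had 143, 123, 327 and 151 CPM in FLASH, 129, 415 and 181 CPM in CONV, and 167, 141 and 149 CPM in sham.

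Rps4l went against the other members. It had 15.2, 13.1, 3.13 and 7.63 CPM in FLASH, 7.24, 2.31 and 11 CPM in CONV, and 14.9, 9.54 and 7.26 CPM in sham. Its lowest values were in the pair, where its paralog Rps4x was highest (409 CPM in FLASH replicate 3 and 437 CPM in CONV replicate 2, against 180 to 252 CPM in the others). Of its 50-base stretches, 85.1% occur in no other annotated transcript, so most of its sequence can be told from Rps4x. Rps27l, a copy of Rps27 that p53 is known to induce, had 24.1, 20.2, 12.4 and 18.9 CPM in FLASH, 18.3, 22 and 27.4 CPM in CONV, and 24.1, 21.2 and 18.4 CPM in sham. FLASH replicate 3 was the lowest and CONV replicate 3 the highest, and the log2 fold changes were -0.17 ± 0.25 SE for FLASH against sham and 0.09 ± 0.26 for CONV against sham with 10 libraries (adjusted p = 0.998 and 0.888 in edgeR). With the 8 they were -0.02 ± 0.18 and 0.09 ± 0.21. Rpl39l, a testis-enriched copy of Rpl39, had 0.193 to 1.17 CPM in FLASH, 0.331 to 0.897 CPM in CONV and 0.163 to 1.46 CPM in sham, at most 48 counts in a library.

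**Figure D5:**
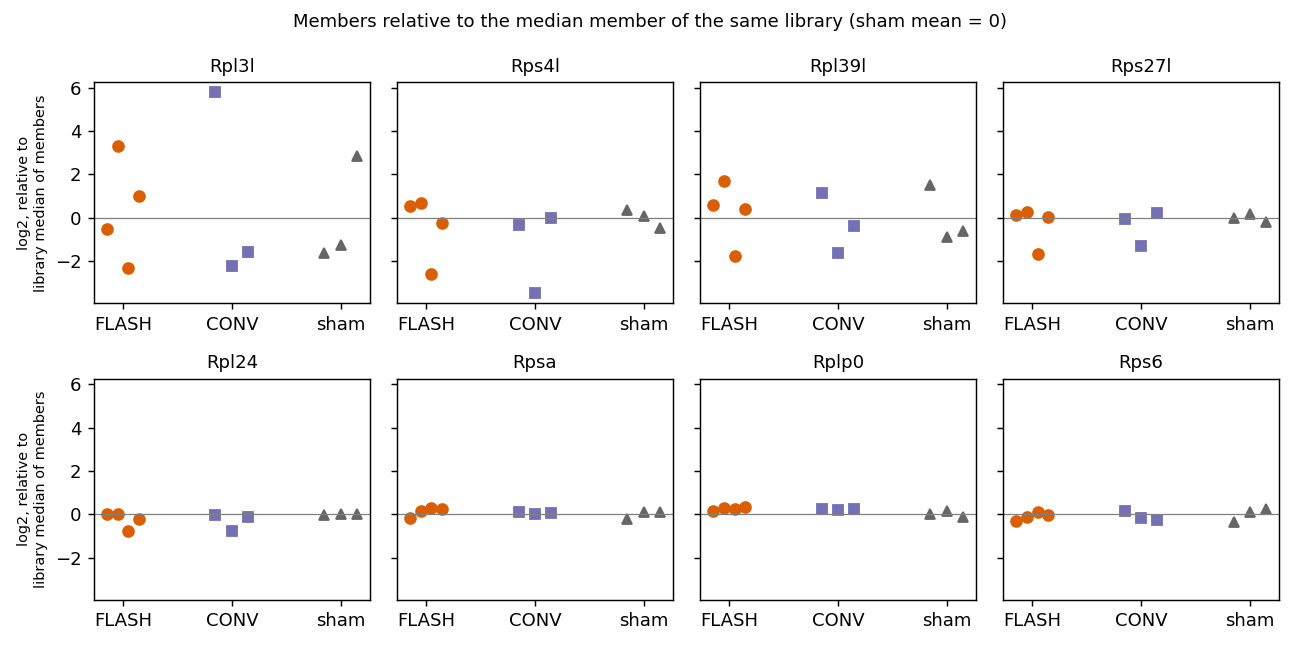
Log2 level of 8 members relative to the median member of the same library, with the sham mean set to 0 (circles FLASH, squares CONV, triangles sham). Rpl3l ranges from -2.33 to 5.79, Rps4l is at -2.58 in FLASH replicate 3 and -3.48 in CONV replicate 2, and Rplp0 stays between -0.14 and 0.35.

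Ratios between paralogs need no scaling between libraries. There were 17.4, 17.1, 20.8 and 14.3 counts of Rpl22l1 per 100 of Rpl22 in FLASH, 16.1, 24.6 and 25 in CONV, and 19.9, 14 and 12.4 in sham, with overlapping groups. Rpl36al per 100 Rpl36a ranged from 44.3 to 90.9 in FLASH, from 64.1 to 74.4 in CONV and from 56.1 to 83.7 in sham. Rpl7l1 per 100 Rpl7 was lowest in the pair, 15.1 in FLASH replicate 3 and 13.9 in CONV replicate 2, against 18.9 to 25 in the other 8. Rpl24, Rpl22, Rpl41 and Rpl11 were also low relative to the other members there. Rpl24 stood at -0.79 in FLASH replicate 3 and -0.77 in CONV replicate 2, and between -0.22 and 0.02 in the others. Rpl11 stood at -0.55 and -0.62 in the pair, and between -0.14 and 0.06 in the others. The gap was smaller for Rpl22 (-0.39 and -0.82, against -0.36 to 0.17) and for Rpl41 (-0.74 and -0.38, against -0.26 to 0.23). Rpl24, Rpl22, Rpl41 and Rpl11 were picked for this after their values were seen.

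A few core members had counts far below the rest. Rpl26 had 3 to 14 counts per library, Rpl34 10 to 55, Rpl30 22 to 81 and Rps27 34 to 87, while none of the 74 members left after setting these 4, Rpl3l, Rpl10l and Rpl39l aside had under 69 counts in any library. Each is a core subunit, so these totals are uncertain as levels, and the errors of the fold changes were large, such as 1.17 ± 0.72 SE for Rpl26 in FLASH against CONV among the 8 libraries. Of the 81 members, 78 share at least 1 stretch of 50 bases with an annotated pseudogene. The share of stretches found in no other gene was 56% for Rpl26, 27.2% for Rpl30, 79.6% for Rpl34 and 40.3% for Rps27, against a median of 61.5% over the members. It was 4.91% for Rpl35 and 6.16% for Rpl5, which were well counted. The part of shared sequence in the low counts was not tested. The sources used here do not say how the authors treated reads with several matches, and counts of such members are uncertain.

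Small differences in proportion crossed the groups. Rps19, a 40S protein mutated in Diamond-Blackfan anaemia, had 66, 43.4, 40.6 and 38.3 counts per 100 of Rpl5 in FLASH, 26.7, 52.9 and 68 in CONV, and 66.5, 33.6 and 29.8 in sham. The 3 highest libraries were 1 of each group. Reads aligned to several places were 4.63%, 3.87%, 3.44% and 3.77% of all entries in FLASH, 3.87%, 3.94% and 6.36% in CONV, and 5.22%, 4.17% and 4.73% in sham. The same 3 libraries were the highest of their groups in that share, and its part in the ratio was not tested. This ratio was chosen after its values were seen.

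Of the genes that build and regulate ribosomes, none passed in any of the 3 comparisons with 10 or with 8 libraries in edgeR, for 35 biogenesis factors, 19 RNA polymerase I genes, 25 initiation factors, 15 elongation factors and other TOP mRNAs, 18 regulators, 12 nucleolar stress and p53 genes (11 with the 8), 77 mitochondrial ribosomal proteins and 8 other ribosomal proteins. With the 8 libraries, 28 of 35 biogenesis factors were above 0 in CONV against sham (median 0.21, against 51.3% of all genes above 0 with a median of 0.01) and 16 of 35 in FLASH against sham (median -0.04, against 48.5% of all genes). The CONV value came mainly from 1 of the 2 libraries, since the list median was 0.06 for CONV replicate 1 against 0.47 for CONV replicate 3. With all 10 libraries 33 of 35 were above 0 for CONV (median 0.61, against 56.9% of all genes with a median of 0.08). For FLASH 31 of 35 were above 0 (median 0.22, against 54.1% of all genes with a median of 0.03). The list median was 1.01 in CONV replicate 2 and 0.78 in FLASH replicate 3, and -0.07 to 0.05 in the other FLASH libraries. In CONV against sham among the 8, the largest value relative to its error was Heatr1, which is needed for transcription of the ribosomal RNA genes (0.72 ± 0.16 SE, adjusted p = 0.131 in edgeR). Gnl3, the nucleolar protein nucleostemin, had 0.65 ± 0.18 (adjusted p = 0.2). Among the 8, 57 of 77 mitochondrial ribosomal proteins were above 0 in CONV against sham (median 0.16), but the list median was -0.15 for CONV replicate 1 against 0.45 for CONV replicate 3. With 10 libraries 46 of 77 were above 0 (median 0.05), against 56.9% of all genes. Nap1l1, a histone chaperone with a TOP mRNA, had -0.91 ± 0.24 in CONV against sham among the 8 (adjusted p = 0.174 in edgeR). Among the 8, the medians of the initiation factors, the regulators and the nucleolar stress list were 0.02, 0.09 and 0.03 in CONV against sham and -0.05, 0.06 and 0.06 in FLASH against sham. With 10 libraries they were 0.13, 0.11 and 0.06 in CONV against sham and -0.04, 0.05 and 0.20 in FLASH against sham.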

How the data were processed

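The authors deposited unnormalized counts per gene symbol, 1 file per library. The submitters' processing notes name kallisto 0.5.0 and mm10. For the aligner, strand setting, annotation and treatment of multimapped reads no statement was found in the sources used here. The counts themselves hold a separate entry, in the form that htseq-count writes, for reads aligned to several places. It held 3.44% to 6.36% of all entries per library and lay outside the gene counts. Per the labels' protocols, the kit depletes ribosomal RNA from total RNA and keeps strand. Entries for reads given to no gene held 52% to 69.6% of each file and stayed out of library sizes. They were highest in FLASH replicate 3 (69.6%) and CONV replicate 2 (66.7%). No 2 libraries had identical counts (45 pairs compared).

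Counts were tested in R 4.3.3 with edgeR 4.0.16: filterByExpr, TMM (factors 0.875 to 1.17), robust quasi-likelihood with 1 mean per group, two-sided, p adjusted by Benjamini-Hochberg over all 15266 genes (15252 with 8 libraries), threshold 0.05. The common dispersion, as a biological coefficient of variation, was 0.543 (10 libraries) and 0.284 (8). The scripts were tested on simulated data. DESeq2 1.42.0 and limma 3.58.1 were alternatives. Log2 CPM used a prior count of 2. TPM used GENCODE M21 exon lengths, available for 95.5% of symbols. Floors take 3 counts, and intervals are at 95%. The members, lists and alternatives were chosen with earlier results of these data known, and so was the exclusion of the 2 lymphocyte-rich libraries. Genes named are those with the 3 smallest p-values in each direction where fewer than 3 passed, paralog pairs, stalk and other classic members, and the extremes of TPM and of the spread; not all are printed. No gene list was tested as a set. A few genes are counted but not reported here by name.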

Additional observations from a re-analysis of the deposited data

Results flagged for a closer look

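In the 4 FLASH libraries, replicate 3 lay far above the others, by a gap larger than Dixon's 95% limit, for the share of gene counts in the members (1.68%, next 0.691%). The same held for the CPM of 11 named members. These were Rpsa (1050, next 473), Rplp0 (606, next 311), Rplp1 (390, next 209), Rps6 (383, next 165), Rpl13a (406, next 154), Rpl3 (327, next 151), Rps16 (338, next 111), Rpl7 (295, next 159), Rps15a (202, next 69.1), Rps12 (122, next 64.9) and Rpl36a (49.4, next 19.2). Chance gives such a gap in about 1 of 20 groups. Counted at either end and for any of the 4 libraries, 31 of 80 members (38.8%) had such a gap, against 22.3% of all genes tested. The median log2 difference of the members from their sham mean, checked the same way, did not have such a gap. It was 0.01, -0.25, 0.93 and -0.11 in FLASH replicates 1 to 4. FLASH replicate 3 is a library of the lymphocyte-rich pair, and the part of lymphoid RNA in these values was not tested. Groups of 3 were not examined this way.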

How the results depend on the processing

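In edgeR, DESeq2 and limma voom, and under every scaling, filter and left-out library tried, 0 members passed in any comparison, so only directions could move. With all 10 libraries, leaving out 1 library gave medians of -0.123 to 0.353 for FLASH against sham (lowest without FLASH replicate 3), 0.014 to 0.797 for CONV against sham and -0.722 to 0.197 for FLASH against CONV (0.014 and 0.197 without CONV replicate 2). Without the pair the CONV against sham median was 0.001. Quality weights gave medians of -0.10 for FLASH against sham, 0.142 for CONV against sham and -0.25 for FLASH against CONV. With the 8 libraries, leaving out 1 more gave -0.191 to -0.025 (45 to 73 members below 0) for FLASH against sham, -0.159 to 0.144 (27 to 66) for CONV against sham and -0.273 to 0.042 (34 to 73) for FLASH against CONV. The cause of these moves was not tested. Whether replicate numbers pair the samples is not stated in the labels. Correlations of same-numbered deviations from the group means ran from -0.76 to 0.26 over all 10 libraries. They cannot decide this, because the lymphocyte-rich libraries weigh on the FLASH and CONV means. With the replicate block the medians were 0.248, 0.526 and -0.268 with 10 libraries, and -0.076, -0.071 and -0.031 among the 8 (52, 54 and 45 members below 0). In FLASH against sham among the 8, 0 members then had an unadjusted p under 0.05, against 12 without the block. Over all genes, DESeq2 passed 663 for CONV against sham and 667 for FLASH against CONV among the 8, against 6 and 2 in edgeR, and 66 and 40 with 10 libraries, against 0 and 0. Among the 8, leaving out a CONV library left 1 in that group, which was assumed to vary like the other groups.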
